A study of Homo sapiens with 12 samples.

Results

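The passage from undifferentiated H1 cells to APLNR+ mesoderm cells was described from RNA-seq of 6 libraries, 3 of each population, among the 12 libraries of a series on blood formation in vitro. H1 is a long-established human embryonic stem cell line, and the APLNR+ cells were its progeny at day 2 of differentiation, marked by the apelin receptor on their surface. Of 56593 gene symbols in the deposited table, 13581 reached 1 FPKM (fragments scaled by transcript length and by the number of mapped fragments) in at least 3 of the 6 libraries and were compared, and 12051 of these are protein-coding. The other 6 libraries, of CD31+CD34+ cells at day 5 and CD43+ cells at day 8, are used here only to show the later level of a gene.

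Per the labels, differentiation started with activin A at 40 ng/ml and BMP4 at 50 ng/ml for 2 days in a chemically defined medium, and the study's methods give the same amounts with the factors exchanged. The H1 cells carry the label undifferentiated and no other treatment, and no genetic change is labelled in either population. All 6 libraries come from a single cell line, and how the APLNR+ cells were separated is not given in the sources used here. The study's methods speak of independent experiments for each analysis without naming these libraries, and the labels do not say whether replicates were separate cultures. Where they were not, the p-values measure only the spread between these libraries, which may be technical. In bulk RNA, fewer cells of a type and less RNA per cell cannot be told apart.

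Pluripotent stem cells grow as a tight epithelium held together by E-cadherin. When mesoderm forms from them, Wnt, BMP and Nodal or activin signals turn on T-box, homeobox and GATA transcription factors, epithelial contacts loosen and the cells become migratory. Mesoderm that carries the apelin receptor is known to include progenitors of heart, vessels and blood.

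Depth relative to H1 replicate 3, read from the smallest steps between low values, ran from 0.586 to 1.05, with replicate 1 the shallowest library of each population. Absolute depth is unknown from FPKM. Small RNA genes held 27.5% to 66.2% of the summed FPKM, and protein-coding genes 24.1% to 55.0%, with the highest protein-coding share in APLNR+ replicate 1. Log2 values of libraries of the same population correlated at r = 0.974 or more, and those of H1 with APLNR+ libraries at 0.845 to 0.861. EEF1A1, a translation factor of all cells, has a listed level of 0 in 4 of the 6 libraries and at 4616 and 3108 FPKM in replicate 1 of H1 and of APLNR+ cells, so a listed 0 may be a failed estimate.

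The 5 markers differed widely between the populations, and the first of them, APLNR, defines the APLNR+ cells. APLNR stood at 0.688, 0.386 and 0.509 FPKM in H1 and at 388, 402 and 359 FPKM in APLNR+ cells. EOMES, the T-box factor of the primitive streak, was at most 0.0793 FPKM in H1 and reached 51.5, 58.7 and 59.1 FPKM in APLNR+ cells, and MESP1, a regulator of early cardiac mesoderm, at most 0.0776 and then 32.3, 21.8 and 24.6 FPKM. SOX2, a core factor of pluripotent and neural cells, had 47.9, 40.3 and 40.9 FPKM in the H1 libraries and 0.319, 0.197 and 0.289 FPKM in APLNR+ cells. CER1, a secreted inhibitor of Nodal, BMP and Wnt, was at 2167, 2301 and 2245 FPKM in APLNR+ cells against at most 2.05 FPKM in H1. For each of these 5 markers the populations did not overlap, and each had p = 0.1 in an exact permutation test (two-sided), the lowest value that 3 against 3 libraries allow. Any gene without overlap gets this value, so the test adds nothing to that separation.

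Calls required an adjusted p from limma below 0.05 together with a 2-fold or larger change in FPKM + 1, compared as log2 values, a scale that makes changes of low genes look smaller. "Rose" and "fell" are written only of called genes, and levels are given as mean ± SD of 3 libraries unless each library is listed. Over all genes tested 1226 rose (9.03%) and 1134 fell (8.35%). Among protein-coding genes 1030 rose (8.55%) and 959 fell (7.96%), with a median log2 change of -0.14. Large changes were mostly rises, with 334 protein-coding genes rising and 155 falling at least 4-fold, and 64 rising and 6 falling at least 16-fold. Rises made up 51.9% of all calls, 59.6% with upper-quartile scaling and 68.4% with libraries scaled to their protein-coding sum. That last scaling moved the median log2 change of all genes by 0.22, from -0.14 to 0.07.

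**Figure D1:**
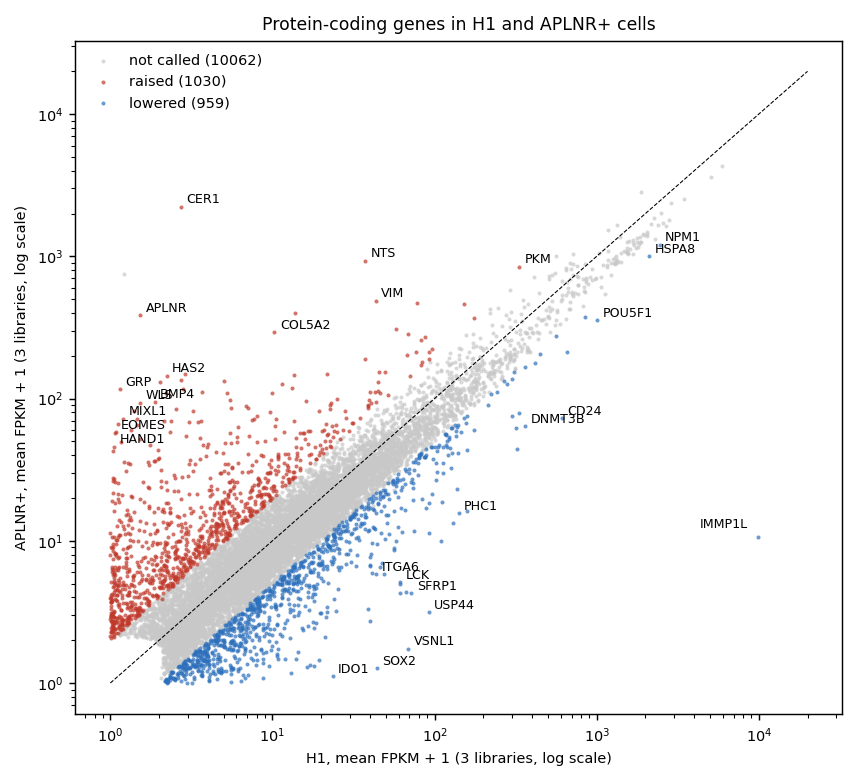
Mean FPKM + 1 of the 3 H1 libraries (horizontal) against that of the 3 APLNR+ libraries (vertical) for 12051 protein-coding genes on log axes, with 1030 raised and 959 lowered genes coloured and the other 10062 in grey. Raised genes reach farther from the line of equality than lowered ones, CER1 is the highest raised gene at a mean of 2238 FPKM, and a lone grey point far above the line is RYR3, which rests on 2243 FPKM in APLNR+ replicate 2 against 1.39 and 1.53 FPKM in the other two APLNR+ libraries.

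The 12 largest rises among genes of at least 10 FPKM were those of CER1, APLNR, GRP, CYP26A1, HAS2, WLS, DKK1, MIXL1, BMPER, EOMES, ALPK2 and HAPLN1. GRP, the precursor of gastrin-releasing peptide, had 0.0922, 0.237 and 0.114 FPKM in the H1 libraries and 107, 121 and 116 FPKM in the APLNR+ libraries (log2 change 6.66 ± 0.10, SE, limma adjusted p 8.01e-09). CYP26A1, the enzyme that degrades retinoic acid, had 1.07, 1.06 and 0.956 FPKM in the H1 libraries and 125, 134 and 131 FPKM in the APLNR+ libraries. HAS2, a synthase of the matrix sugar hyaluronan, had 1.31, 1.15 and 1.23 FPKM in the H1 libraries and 121, 152 and 155 FPKM in the APLNR+ libraries. In these genes the lowest APLNR+ library lay far above the highest H1 library. HAPLN1, which links hyaluronan to proteoglycans, rose from 1.87 ± 0.928 to 148 ± 18.1 FPKM, so both partners of this matrix are among the 12. MIXL1, a homeobox factor of the primitive streak, had the widest spread of the 12 relative to its mean, with 48.1, 83.4 and 82.3 FPKM in APLNR+ cells against at most 0.44 FPKM in H1, replicate 1 being lowest in both populations. WLS, the carrier that Wnt proteins need for secretion, rose from 0.53 ± 0.11 to 92.2 ± 2.1 FPKM, and ALPK2, an alpha-kinase, rose from 0.0892 ± 0.0193 to 57.5 ± 6.06 FPKM.

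The 12 largest falls were those of IMMP1L, VSNL1, SOX2, USP44, IDO1, SFRP1, CNMD, PTPRZ1, TMEM132B, PPP2R2B, CAMKV and PLA2G4C. VSNL1, a neuronal calcium sensor, had 58.1, 71.4 and 74.1 FPKM in the H1 libraries and 0.468, 1.32 and 0.432 FPKM in the APLNR+ libraries (log2 change -5.33 ± 0.20, SE, limma adjusted p 3.44e-07). USP44, a deubiquitinase of the mitotic checkpoint, had 86.1, 93.6 and 93.3 FPKM in the H1 libraries and 1.84, 2.07 and 2.56 FPKM in the APLNR+ libraries. IDO1, the enzyme that degrades tryptophan, had 20.5, 23.1 and 24 FPKM in the H1 libraries and 0.166, 0.0811 and 0.106 FPKM in the APLNR+ libraries. These populations were again far apart in every library. SFRP1, a secreted Wnt inhibitor, fell from 70.8 ± 12.2 to 3.28 ± 0.69 FPKM, and PTPRZ1, a receptor phosphatase known from glia, fell from 38.8 ± 7.37 to 1.74 ± 0.402 FPKM. IMMP1L, a gene of a mitochondrial peptidase, stood apart: its H1 libraries had 18, 11094 and 18782 FPKM and its APLNR+ libraries 10.9, 9.38 and 8.48 FPKM, so 2 libraries carry its change, and its call was lost in 7 alternative settings.

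**Figure D2:**
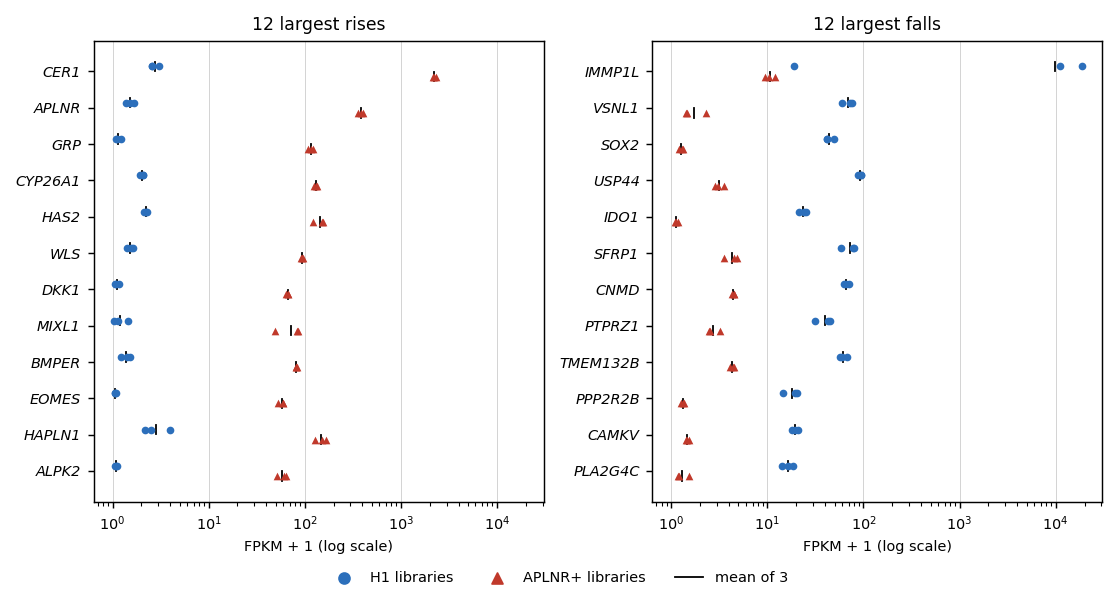
FPKM + 1 in each library on a log axis for the 12 largest rises and the 12 largest falls, with the mean of each population marked. The libraries of the populations are apart for every gene, most are tightly grouped, and IMMP1L is the exception, with H1 replicate 1 at 18 FPKM beside the APLNR+ libraries and far from the other two H1 libraries.

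By difference in level, the 5 largest rises were those of CER1, NTS, PKM, VIM and TAGLN. NTS, the precursor of neurotensin and a gut and brain peptide like that of GRP, had 38.3, 35.6 and 35 FPKM in the H1 libraries and 845, 961 and 998 FPKM in the APLNR+ libraries. PKM, pyruvate kinase, rose from 331 ± 14.3 to 846 ± 45.8 FPKM. VIM, the intermediate filament of mesenchymal cells, rose from 42.4 ± 4.77 to 484 ± 75.3 FPKM, and TAGLN, an actin-binding protein of contractile cells, rose from 76.4 ± 15.7 to 466 ± 69.7 FPKM. Among the largest falls by level, CD24, a surface glycoprotein of stem and epithelial cells, had 608, 615 and 605 FPKM in the H1 libraries and 70.2, 71.2 and 73.3 FPKM in the APLNR+ libraries and kept its call in every setting. NPM1, a nucleolar chaperone, fell from 2445 ± 538 to 1201 ± 107 FPKM, and HSPA8, a constitutive chaperone, fell from 2111 ± 31.2 to 1001 ± 152 FPKM, but both calls were lost under all 3 other scalings.

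A total of 80 protein-coding genes stayed below 0.5 FPKM in every H1 library and reached 5 FPKM in every APLNR+ library. They include the transcription factor genes GATA4, HAND1, LHX1, IRX3 and HLX, and several genes picked here after their values were seen because they are known from other tissues. ANKRD1, a stretch-responsive muscle gene, rose from 0.158 ± 0.0662 to 48.5 ± 6.13 FPKM. NPPB, the precursor of a heart natriuretic peptide, rose from 0.0453 ± 0.0235 to 26.7 ± 2.29 FPKM, and PENK, the enkephalin precursor, rose from 0.173 ± 0.0497 to 20 ± 0.864 FPKM. ATP12A, a proton pump subunit, rose from 0.211 ± 0.0163 to 34.6 ± 2.22 FPKM, and ZAP70, a kinase known from T cells, rose from 0.0375 ± 0.0255 to 8.56 ± 0.674 FPKM. SLPI, a secreted protease inhibitor, was listed at 0 in all H1 libraries and at 9.89, 10 and 11.4 FPKM in APLNR+ cells.

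Only 12 genes did the reverse, at 5 FPKM or more in every H1 library and below 0.5 FPKM in every APLNR+ library: GDPD2, GRIA4, HESX1, IDO1, KLHDC7A, LMO3, PARD6A, PPP2R2B, RASGRP2, SOX2, TNFSF11 and TTYH1. GRIA4, a glutamate receptor subunit, had 12.7, 11.4 and 12.2 FPKM in the H1 libraries and 0.11, 0.358 and 0.0726 FPKM in the APLNR+ libraries. HESX1, a homeobox factor of the epiblast and forebrain, had 7.08, 7.77 and 8.31 FPKM in the H1 libraries and 0.24, 0.449 and 0.457 FPKM in the APLNR+ libraries. RASGRP2, an activator of the GTPase RAP1, fell from 16 ± 1.03 to 0.34 ± 0.0582 FPKM.

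The protein-coding changes were then counted in 69 gene lists by function or family, which hold 1854 tested genes between them, of which 303 rose and 214 fell. Each count is read beside the 8.55% of protein-coding genes that rose and the 7.96% that fell. The lists were chosen with earlier results of these data known, so their shares are descriptions and not tests. Genes that were low in 1 population passed the filter only if high in the other, which favours called genes in lists of silent factors. Genes left untested are given for some lists, and the other counts cover tested members only. Before the filter the T-box list held 17 genes, the homeobox list 58, the bHLH list 48, the TGF-beta ligand list 33 and the FGF list 30.

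**Figure D3:**
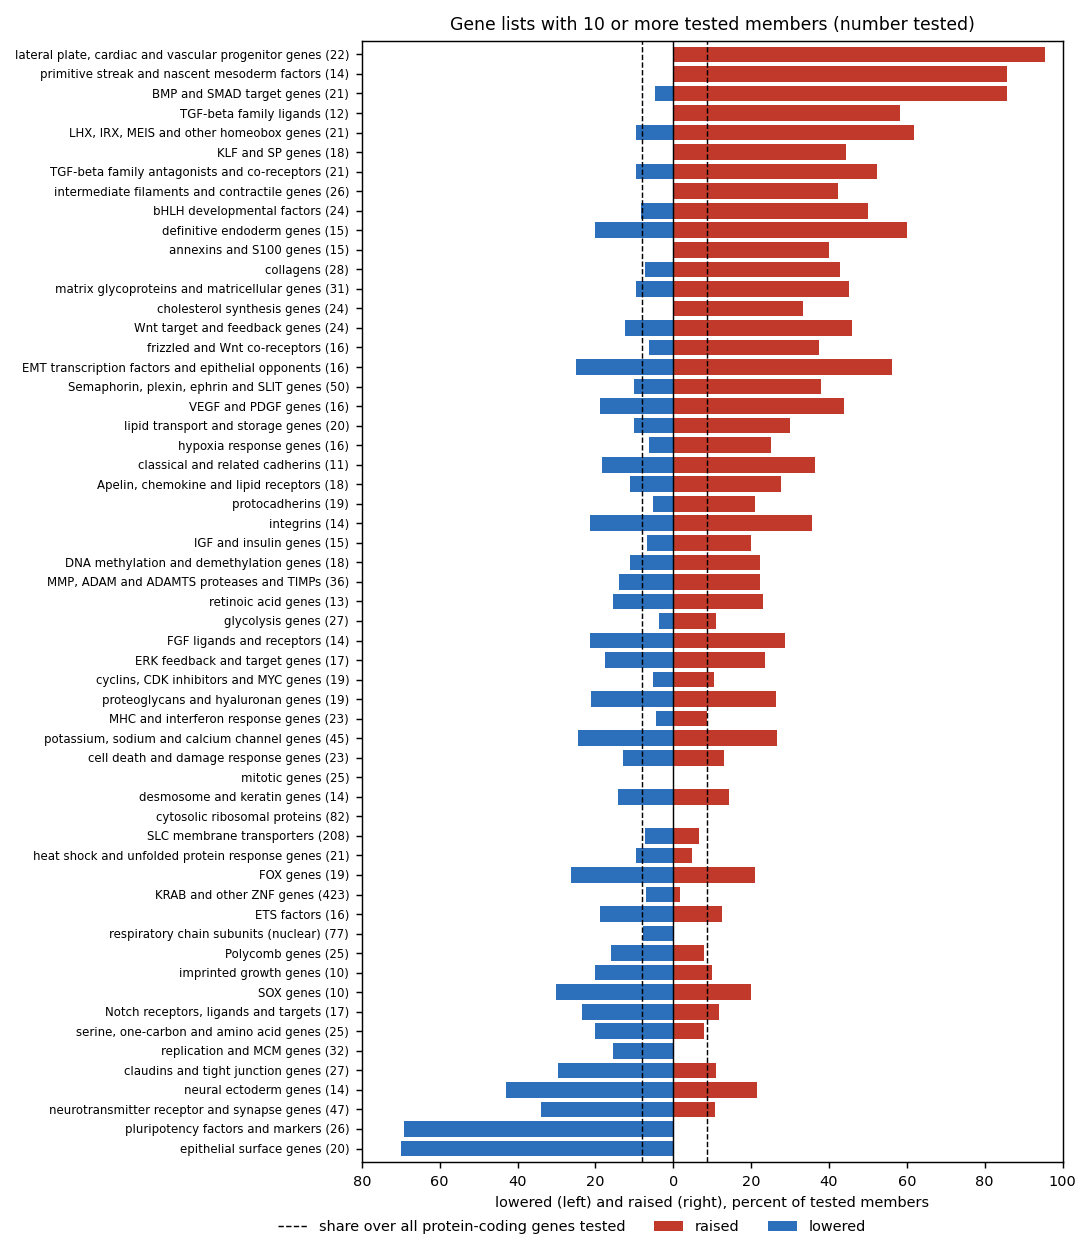
Percent of tested members raised and lowered in each gene list with 10 or more tested members, with dashed lines at the shares over all protein-coding genes, 8.55% raised and 7.96% lowered. Earlier results of these data were known when the lists were chosen. The lateral plate list (95.5% raised) and the primitive streak list (85.7% raised) have no lowered member, the epithelial surface list (70.0% lowered) and the pluripotency list (69.2% lowered) have no raised one, and mitotic and ribosomal protein genes have neither.

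Of 19 factors of the primitive streak and nascent mesoderm 14 were tested, 12 rose and none fell, with a median log2 change of 2.63. Levels within the list differed widely. MIXL1 and EOMES averaged 71.3 and 56.5 FPKM in APLNR+ cells, GSC, an organizer factor, 20.7 FPKM and MESP2 19.3 FPKM. T, the brachyury gene, rose to only 5.23, 4.55 and 3.53 FPKM, and TBX6, the T-box factor of paraxial mesoderm, to 1.7, 2.21 and 1.72 FPKM. SP5, a zinc finger factor and Wnt target, rose from 0.0241 ± 0.0201 to 9.6 ± 0.703 FPKM.

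The lateral plate, cardiac and vascular progenitor list moved almost as a block, with 21 of 22 tested members up (median 2.36) and MEIS2 not called. HAND1, a factor of lateral mesoderm and heart, had 0.0543, 0.0467 and 0.0698 FPKM in the H1 libraries and 36.6, 48.9 and 49.1 FPKM in the APLNR+ libraries. GATA6, a factor of cardiac mesoderm and endoderm, had 0.0418, 0.0219 and 0.0363 FPKM in the H1 libraries and 45.2, 39.1 and 41.6 FPKM in the APLNR+ libraries. Replicate 1 was the lowest APLNR+ library for HAND1 and the highest for GATA6. GATA4, MSX2 and TBX3 averaged 15.3, 24.4 and 20.4 FPKM in APLNR+ cells and at most 0.122 FPKM in H1. Factors of the later heart rose to low levels, NKX2-5 from 0.0253 to 2.77 FPKM, ISL1 from 0.0601 to 2.2 FPKM and TBX20 from 0.0458 to 2.15 FPKM on average. The other 7 of its 29 genes were not tested.

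By family, 5 of 6 tested T-box genes, 5 of 6 GATA genes and partners, 8 of 18 KLF and SP genes, 13 of 21 homeobox genes outside the HOX clusters and 12 of 24 developmental bHLH genes rose, while 2 homeobox and 2 bHLH genes fell. Other families went both ways. SOX genes had 2 of 10 up, SOX17 and SOX5, and 3 down, SOX2, SOX3 and SOX8. FOX genes had 4 of 19 up and 5 down, or 3 down with upper-quartile or protein-coding scaling, FOXF1 going from 0.0129 to 4.15 FPKM and FOXD3 from 4.53 to 0.0179 FPKM. ETS factors had 2 of 16 up and 3 down, or 3 and 2 with protein-coding scaling. KLF5 was uneven among APLNR+ libraries, at 3.19, 7.07 and 6.23 FPKM. Of 39 HOX genes 2 passed the filter, and both rose, HOXB2 to 1.68 ± 0.117 and HOXB6 to 3.15 ± 0.338 FPKM. Their H1 means were 0.059 and 0.00235 FPKM, so they passed the filter only through the APLNR+ libraries. The large family of KRAB and other ZNF genes had 7 of 423 raised (1.65%) and 30 lowered (7.09%), or 12 raised and 20 lowered with protein-coding scaling. ZNF483 fell from 40.2 ± 3.7 to 4.94 ± 0.741 FPKM, and ZNF521, a cofactor of progenitor cells, rose from 4.33 ± 0.287 to 29.1 ± 5.5 FPKM.

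Neighbouring fates were checked in the same libraries. In the paraxial mesoderm list, 6 of 18 genes were tested, 3 rose and 2 fell, with DLL3, a Notch ligand of presomitic mesoderm, at 2.46, 1.68 and 2.01 FPKM in the H1 libraries and 38.7, 32.6 and 30.1 FPKM in the APLNR+ libraries. In the endoderm list 15 of 24 were tested, 9 rose and 3 fell. SOX17, a factor of endoderm and of hemogenic endothelium, had 0.155, 0.00473 and 0.027 FPKM in the H1 libraries and 19.6, 16.5 and 16.3 FPKM in the APLNR+ libraries. The others that rose were EPHA4 (4.13 to 47.6 FPKM), LGR5 (0.0281 to 17.9 FPKM), CXCR4 (0.719 to 6.06 FPKM), PRDM1, TRH, APOA2, GATA4 and GATA6. FOXA2 and HNF4A, also in the list, were not tested and averaged 0.392 and 0.102 FPKM in APLNR+ cells. AFP, a fetal liver protein, fell from 8.56 ± 0.869 to 0.99 ± 0.686 FPKM. CLDN6 and KIT fell as well, KIT with a call lost with protein-coding scaling. The summed level of the list went from a range of 138 to 157 FPKM in H1 to 200 to 216 FPKM in APLNR+ cells.

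Endothelial and blood markers were largely near 0. Under 1 FPKM in all 6 libraries were 15 of 24 endothelial genes, with PECAM1, CDH5 and TAL1 averaging 0.0997, 0.0591 and 0.0353 FPKM in APLNR+ cells. KDR, a VEGF receptor, had 19.3, 26.7 and 26.4 FPKM in the H1 libraries and 46.6, 63.7 and 61.7 FPKM in the APLNR+ libraries and was, with SOX17, 1 of 2 endothelial genes that rose among 6 tested. The other 4 tested, FLT1 (18.5 and 10.7 FPKM), EGFL7 (22.5 and 14.3 FPKM), TEK and TIE1, were not called and averaged lower in APLNR+ cells. The median log2 change of the list was -0.60. Its summed level, which includes KDR and SOX17, ran from 75.8 to 79.0 FPKM in H1 and from 102 to 115 FPKM in APLNR+ cells. Of 23 blood genes 15 stayed under 1 FPKM and HBA1 was listed at 0. Of the 7 tested, 3 rose and 2 fell, or 4 and 1 with protein-coding scaling. ITGA2B, the integrin of platelets and the highest member in H1, fell from 7.1 ± 1.8 to 2.39 ± 0.808 FPKM, and VAV1, a signalling protein of blood cells, fell from 1.19 ± 0.155 to 0.0555 ± 0.0394 FPKM, while GATA2 and RUNX1, a pair of blood stem cell factors, rose to 4.71 ± 0.271 and 1.95 ± 0.122 FPKM. GYPB, a glycophorin with near-identical relatives among which reads may be split, was listed at 0 in H1 and at 5.27, 8.56 and 7.06 FPKM in APLNR+ cells. The summed blood level ran from 11.5 to 13.2 FPKM and then from 21.7 to 25.5 FPKM.

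Trophoblast and amnion genes summed to 10.6 to 11.9 FPKM in H1 and to 31.6 to 33.7 FPKM in APLNR+ cells. Of the 27, 17 stayed under 1 FPKM, ELF5, CGB3, XAGE3 and HSD3B1 were listed at 0, and 7 of 8 tested rose. Those that rose, such as GATA3 and TFAP2C, are known from other tissues too, and the keratin KRT7 fell from 5.84 ± 0.386 to 0.976 ± 0.363 FPKM. Of 8 tested germ cell genes 4 rose and 3 fell, or 1 fell with protein-coding scaling. Among them was NANOS3, an RNA-binding factor of germ cells, at 0.405, 0.171 and 0.195 FPKM in the H1 libraries and 16.3, 14.5 and 12 FPKM in the APLNR+ libraries. The part of minor cell types in these values was not tested.

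In the pluripotency list 18 of 26 tested genes fell and none rose (median -1.39). The loss was uneven: SOX2 and PRDM14 ended at 0.269 and 2.15 FPKM, whereas POU5F1 remained at 338, 377 and 346 FPKM. LIN28A, an inhibitor of let-7 miRNAs, averaged 178 FPKM after 415 FPKM in H1. SALL4, LIN28B and TDGF1 were not called, with means of 37.4 and 35, 48.3 and 42.1, and 234 and 180 FPKM in H1 and APLNR+ cells. DNMT3B, the de novo DNA methyltransferase of stem cells, fell from 360 ± 9.75 to 63 ± 2.83 FPKM, and JARID2, a Polycomb cofactor, fell from 56.6 ± 3.5 to 8.92 ± 0.581 FPKM. In the naive pluripotency list 3 of 8 tested genes fell (DPPA5, PRDM14, ZFP42) and 4 rose (KLF4, KLF5, NR0B1, TBX3). DPPA5 is listed at 0 in all APLNR+ libraries.

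In the neural ectoderm list 6 of 14 tested genes fell and 3 rose, and 15 of its 30 genes stayed under 1 FPKM. SOX3 fell from 3.09 ± 0.0999 to 0.159 ± 0.0189 FPKM. OTX2, a factor of the anterior streak and forebrain, rose from 12.9 ± 1.39 to 32.4 ± 5.67 FPKM, and NCAM1, an adhesion molecule of neurons and mesoderm, rose from 1.51 ± 0.0674 to 26.5 ± 3.01 FPKM. Of 47 tested neurotransmitter receptor and synapse genes 16 fell (34.0%) and 5 rose (median -0.74). The lowered ones include CNTN1, an axonal adhesion molecule (8.76 to 0.716 FPKM), SYT6, a synaptotagmin (8.18 to 0.652 FPKM), and subunits of GABA, kainate and NMDA receptors. The raised ones include another GABA receptor subunit, GABRB2 (0.357 to 2.55 FPKM), and the adhesion genes CNTNAP2 (2.61 to 16.4 FPKM) and CNTN4 (1.28 to 5.02 FPKM). Potassium, sodium and calcium channel genes had 12 of 45 up and 11 down, or 13 up and 7 down with protein-coding scaling.

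In the epithelial surface list 14 of 20 tested genes fell and none rose, with a median of -1.49. CDH1, E-cadherin, had 31.2, 36.8 and 35 FPKM in the H1 libraries and 12.1, 12.8 and 12.2 FPKM in the APLNR+ libraries (log2 change -1.40 ± 0.09, SE, limma adjusted p 6.77e-06). EPCAM, a cell adhesion molecule, went from a mean of 45.5 to 15.1 FPKM. The list also holds VSNL1 and LCK, a kinase best known from T cells. Neither is an epithelial surface protein, and both are among the 14 that fell. Of 27 tight junction genes 8 fell and 3 rose. CLDN6, an embryonic claudin, fell from 120 ± 9.52 to 38.9 ± 4.15 FPKM, CLDN7 fell from 45.6 ± 2.36 to 10.3 ± 1.87 FPKM, and CLDN11 rose from 1.31 ± 0.122 to 12.1 ± 0.418 FPKM. Keratins went both ways, for beside the fall of KRT7 above, KRT8 and KRT19, of simple epithelia, rose, KRT8 with 158, 152 and 145 FPKM in the H1 libraries and 470, 492 and 424 FPKM in the APLNR+ libraries, and KRT18, the partner of KRT8, averaged 296 and 405 FPKM without a call.

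Of 16 tested transcription factors of the epithelial to mesenchymal transition and their opponents 9 rose and 4 fell. SNAI2, a repressor of E-cadherin, had 0.111, 0.197 and 0.091 FPKM in the H1 libraries and 8.58, 10.1 and 11.4 FPKM in the APLNR+ libraries. ZEB2, another such repressor, had 0.171, 0.092 and 0.0231 FPKM in the H1 libraries and 9.75, 13.3 and 12 FPKM in the APLNR+ libraries, and SNAI1 rose from 0.874 ± 0.251 to 10.3 ± 1.15 FPKM. The third member of the SNAI family went the other way, as SNAI3 fell from 3.04 ± 0.337 to 0.109 ± 0.0778 FPKM. GRHL2 and ESRP1, which maintain epithelial transcription and splicing, fell to 3.44 ± 0.416 and 9.44 ± 1.58 FPKM, and ESRP2 fell too. Other factors of epithelia in the list are among the 9 that rose, GRHL3 from 0.283 to 1.72 FPKM, ELF3 from 2.79 to 8.69 FPKM and KLF5 from 0.204 to 5.49 FPKM. Of 11 tested cadherins 4 rose and 2 fell. CDH2, N-cadherin, had 8.39, 8.53 and 11.3 FPKM in the H1 libraries and 41.3, 55.5 and 56 FPKM in the APLNR+ libraries, and CDH11, a mesenchymal cadherin, rose from 4.57 ± 0.842 to 85.4 ± 4.54 FPKM.

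Calls among genes of matrix and cytoskeleton were mostly rises. Collagens had 12 of 28 up and 2 down (median 0.86), with COL5A2 at 11.6, 8.34 and 7.93 FPKM in the H1 libraries and 312, 292 and 268 FPKM in the APLNR+ libraries. COL5A1 had 142, 109 and 96 FPKM in APLNR+ cells against a mean of 1.8 FPKM. COL1A1, the main fibrillar collagen of connective tissue, was not called at 7.37 and 12.4 FPKM. Matrix glycoproteins had 14 of 31 up and 3 down (median 0.96). TNC, tenascin C, rose from 1.55 ± 0.0326 to 83.6 ± 5.61 FPKM, FBN2, an embryonic fibrillin, rose from 4.06 ± 0.311 to 132 ± 7.63 FPKM, and FN1, fibronectin, went from 12.5 to 146 FPKM. The fibronectin receptor subunit ITGA5 rose from 6.46 ± 0.625 to 70.1 ± 4.13 FPKM, while ITGA6, a laminin receptor subunit of epithelia, fell from 42.7 ± 2.11 to 4.8 ± 0.576 FPKM. Hyaluronan synthases switched, since HAS3 fell from 9 ± 2.26 to 0.821 ± 0.238 FPKM while HAS2 rose.

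Intermediate filament and contractile genes had 11 of 26 up and none down (median 0.71). MYL7, the myosin light chain of the atrium, had 0.884, 1.62 and 1.15 FPKM in the H1 libraries and 122, 112 and 89.8 FPKM in the APLNR+ libraries. MYL4 had 0.264, 0.109 and 0.0159 FPKM in the H1 libraries and 17.9, 17.8 and 17.8 FPKM in the APLNR+ libraries, and ACTC1, cardiac actin, rose from 2.6 ± 1.03 to 68.5 ± 8.27 FPKM. These genes, known from cardiac muscle, were thus present on day 2 in every APLNR+ library. They were not confined to it, since MYL4 averaged 53.9 FPKM in CD31+CD34+ and 268 FPKM in CD43+ cells. In the same later populations ACTC1 averaged 103 and 3.12 FPKM and MYL7 23.1 and 0.292 FPKM. TNNT2, cardiac troponin T, was not called and averaged 4.91 and 2.63 FPKM in H1 and APLNR+ cells. Of 36 tested proteases and their TIMP inhibitors 8 rose and 5 fell, or 10 and 3 with protein-coding scaling. MMP2, a gelatinase, rose from 5.07 ± 0.858 to 52.7 ± 1.25 FPKM, and ADAM19 rose from 4.51 ± 0.524 to 96.6 ± 6 FPKM, whereas TIMP4 fell from 4.57 ± 0.45 to 0.24 ± 0.0757 FPKM and ADAMTS8 fell from 3.79 ± 0.0295 to 0.179 ± 0.0137 FPKM. Annexins and S100 genes had 6 of 15 up and none down, led by ANXA1, which rose from 0.88 ± 0.0721 to 35.6 ± 2.96 FPKM.

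Of 50 tested guidance genes, those of semaphorins, plexins, ephrins, netrins and SLIT proteins, 19 rose and 5 fell (median 0.60). PLXNA2, a semaphorin receptor, had 0.526, 0.265 and 0.214 FPKM in the H1 libraries and 66, 56.3 and 55.6 FPKM in the APLNR+ libraries. SEMA6D, a ligand of plexins, had 0.207, 0.321 and 0.228 FPKM in the H1 libraries and 24.7, 31.9 and 32.7 FPKM in the APLNR+ libraries, and SEMA3C, a secreted semaphorin of the heart outflow tract, rose from 0.707 ± 0.217 to 22.7 ± 4.6 FPKM. The co-receptors NRP1 and NRP2 rose to 18.6 ± 1.26 and 47.9 ± 5.49 FPKM. SEMA3A went down with a wide spread in H1, from 26.8, 46.5 and 40.5 to 7.45, 13.5 and 11.3 FPKM.

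Among signalling genes, all 5 Wnt ligands that passed the filter rose (median 3.12), and the other 14 of 19 were not tested. Among these 5, WNT3, WNT4, WNT5A and WNT5B averaged at most 0.524 FPKM in H1. They passed the filter through the APLNR+ libraries, so their rise was close to fixed by the filter. WNT5A, a ligand that acts mainly without beta-catenin, had 0.68, 0.389 and 0.504 FPKM in the H1 libraries and 57.7, 48.3 and 47.3 FPKM in the APLNR+ libraries. Its receptor ROR2 rose from 1 ± 0.191 to 37 ± 1.41 FPKM. WNT3, which starts the primitive streak, averaged 3.87 FPKM after 0.101 FPKM in H1. Of 24 Wnt target and feedback genes 11 rose and 3 fell. The inhibitor DKK1 had 0.0952, 0.0684 and 0.167 FPKM in the H1 libraries and 63.5, 66.1 and 66.5 FPKM in the APLNR+ libraries, NKD1 rose from 1.05 ± 0.286 to 25.2 ± 4.1 FPKM, and LGR5, a receptor of R-spondins, rose from 0.0281 ± 0.00675 to 17.9 ± 2.81 FPKM. AXIN2, a widely used Wnt target, was not called at 6.83 and 10.9 FPKM. SFRP1 and SFRP2, secreted inhibitors that H1 cells express, fell.

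In the TGF-beta family 7 of 12 tested ligands rose and none fell. BMP4 had 1.21, 0.763 and 0.663 FPKM in the H1 libraries and 94.3, 96.8 and 89.8 FPKM in the APLNR+ libraries, and BMP2 had 0.507, 0.404 and 0.44 FPKM in the H1 libraries and 70.2, 71.5 and 72.1 FPKM in the APLNR+ libraries, both from H1 levels near 1 FPKM or less. NODAL was not called, at 2.99 and 6.43 FPKM. Its inhibitors LEFTY1 and LEFTY2 had 16, 15.3 and 14.4 FPKM and 8.96, 9.26 and 8.46 FPKM in APLNR+ cells after means of 5.62 and 1.61 FPKM. Antagonists and co-receptors had 11 of 21 up and 2 down, among them BMPER, a BMP-binding protein of vessels, which rose from 0.395 ± 0.158 to 80.4 ± 0.972 FPKM, and FST, follistatin, which went from 2.46 to 67.2 FPKM. Of 21 BMP and SMAD target genes 18 rose and 1 fell (median 2.42). SMAD6, an inhibitory SMAD, had 2.49, 2.2 and 1.53 FPKM in the H1 libraries and 66.5, 71.4 and 63.6 FPKM in the APLNR+ libraries, and SKIL, the member that fell, lost its call in 7 settings.

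FGF genes went both ways, 4 of 14 up and 3 down, or 6 up and 3 down with upper-quartile or protein-coding scaling. The receptor FGFR1, the highest member, was not called at 75.5 and 66.8 FPKM in H1 and APLNR+ cells. FGF8, a streak ligand, had 0.538, 0.531 and 0.445 FPKM in the H1 libraries and 12.5, 10.8 and 9.39 FPKM in the APLNR+ libraries, and FGF10 rose from 0.115 ± 0.0368 to 18.6 ± 0.813 FPKM, while FGF2, the factor that sustains stem cells, fell from 15.5 ± 1.44 to 5.5 ± 0.0299 FPKM. Of 17 ERK targets 4 rose and 3 fell, or 6 and 2 with protein-coding scaling, under which ETV4 lost its call. DUSP6, ETV1 and ETV4 fell, DUSP6 with 104, 106 and 99.2 FPKM in the H1 libraries and 27.5, 31.3 and 30.2 FPKM in the APLNR+ libraries, whereas FOS, EGR1, IER3 and DUSP5 rose. Immediate-early genes, a list added after these values were seen, had 11 of 16 tested members up and none down (median 1.94), with FOS at 6.37, 5.58 and 5.63 FPKM in the H1 libraries and 90.7, 87.5 and 84.1 FPKM in the APLNR+ libraries. Their part in the other results was not tested.

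Notch genes had 2 of 17 up and 4 down, or 4 up and 3 down with protein-coding scaling, the rises of DLL3 (2.05 to 33.8 FPKM) and HES1 (6.21 to 53.2 FPKM) standing beside falls of LFNG, MFNG, NRARP and HES3. In the retinoic acid list 3 of 13 rose and 2 fell. Beside CYP26A1, the synthesis enzyme ALDH1A2 reached 1.28, 1.16 and 3.1 FPKM, a call that was lost without APLNR+ replicate 3, and the binding proteins CRABP1 and CRABP2 went opposite ways, CRABP1 from 83.1 to 18.8 FPKM and CRABP2 from 21.6 to 84.1 FPKM. The apelin receptor appeared without a matching rise of its ligands. APELA, the early embryonic ligand, had 11, 12.1 and 12.8 FPKM in the H1 libraries and 4.06, 6.02 and 6.77 FPKM in the APLNR+ libraries (log2 change -0.99, not called), and APLN, apelin itself, averaged 0.275 and 0.026 FPKM and was not tested. PDGFRA rose to 18.8 ± 0.811 FPKM while its ligand PDGFA fell to 1.42 ± 0.254 FPKM.

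**Figure D4:**
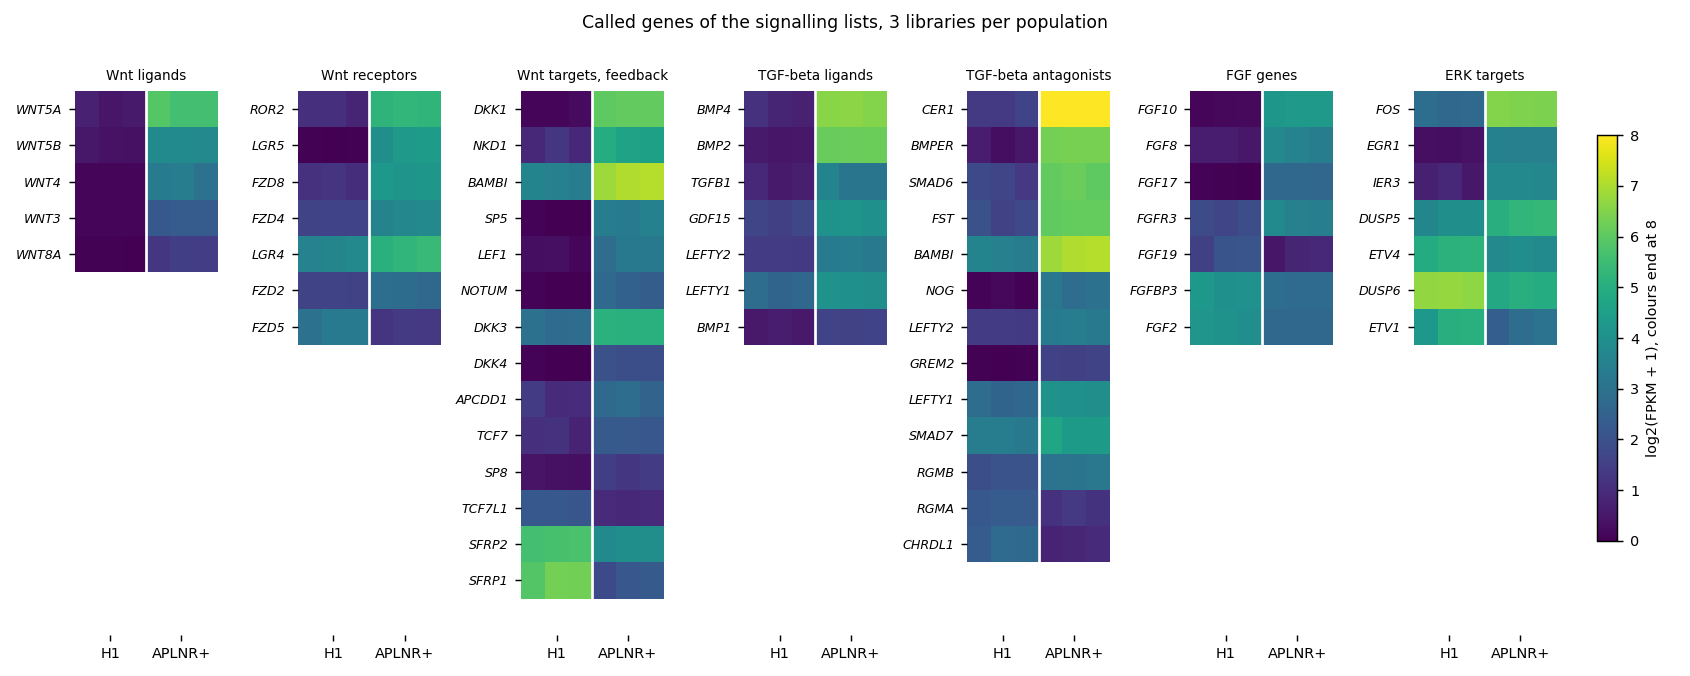
Heatmap of log2(FPKM + 1) in the 3 H1 and 3 APLNR+ libraries for the called genes of 7 signalling lists, with colours ending at 8, so that CER1 lies past the end of the scale. Libraries of a population look alike in nearly every row, and rows of WNT5A, BMP2, BMP4 and DKK1 turn from near 0 to high. Rows of SFRP1, SFRP2 and ETV1 turn lower without reaching 0.

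Few cell cycle genes were called. None of 25 mitotic genes was called (median 0.01), or 3 raised with protein-coding scaling (median 0.25), with CCNB1 at 170 and 154 FPKM. Replication genes had 5 of 32 down, MCM3 and MCM5 among them, and none up (median -0.61), which became 1 down and a median of -0.36 with protein-coding scaling. CDKN1A, an inhibitor of cyclin-dependent kinases, rose from 4.51 ± 0.34 to 21.5 ± 2.41 FPKM. MYC and CCND1 were not called, at 21.3 and 22 FPKM and at 30.8 and 33.1 FPKM, while MYCN fell from 26.1 ± 2.07 to 10.8 ± 0.744 FPKM, a call lost with protein-coding scaling. The stress-inducible GADD45 genes all rose, GADD45B with 3.77, 2.15 and 2.25 FPKM in the H1 libraries and 52.9, 43.5 and 41.1 FPKM in the APLNR+ libraries.

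Among chromatin genes, DNMT1 and TET1 were not called (30.3 and 31 FPKM, 9.15 and 12.9 FPKM), in contrast to DNMT3B. Polycomb genes had 4 of 25 down and 2 up, which became 2 down and 3 up with upper-quartile or protein-coding scaling. PHC1 had 121, 153 and 146 FPKM in the H1 libraries and 11.4, 15.9 and 16.3 FPKM in the APLNR+ libraries, and its relative PHC2 rose from 1.76 ± 0.357 to 11.6 ± 1.58 FPKM. The catalytic subunit EZH2 was not called, at 13.7 and 9.02 FPKM. APOBEC3G, an antiviral deaminase, rose from 0.699 ± 0.0752 to 34.9 ± 0.936 FPKM.

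Several metabolic lists had shares near those over all protein-coding genes, 8.55% raised and 7.96% lowered. Cholesterol synthesis had 8 of 24 up (33.3%) and none down (median 0.76), and 12 up with protein-coding scaling. HMGCS1, an enzyme at the head of the pathway, went from 95.4 to 222 FPKM. Glycolysis had 3 of 27 up (11.1%) and 1 down (3.7%, median 0.01), or 4 up and none down with protein-coding scaling (median 0.28). The rises were those of PKM and the transporters SLC2A3 and SLC16A3, which carry glucose and lactate. Respiratory chain subunits had 6 of 77 down (7.79%, near the share over all protein-coding genes) and none up (median -0.56), or 1 down and a median of -0.30 with protein-coding scaling. None of 82 ribosomal protein genes was called (median -0.47). Lipid transport and storage genes had 6 of 20 up and 2 down (median 0.36). LIPG, a lipase, rose from 4.48 ± 0.437 to 56.3 ± 1.8 FPKM, and FASN, the fatty acid synthase, rose from 39.2 ± 2.18 to 110 ± 21.1 FPKM, whereas the fatty acid binding genes FABP3 and FABP7 fell and their relative FABP5 rose from 86.6 ± 3.31 to 271 ± 18.4 FPKM. Hypoxia response genes had 4 of 16 up and 1 down, or 6 and 0 with protein-coding scaling. EGLN3, an oxygen-dependent hydroxylase, rose from 6.68 ± 0.158 to 70.9 ± 4.22 FPKM, while ADM fell from 47 ± 5.88 to 19.8 ± 1.46 FPKM, a call lost with protein-coding scaling. Of 25 serine, one-carbon and amino acid genes 2 rose and 5 fell, which became 2 and 2 with upper-quartile scaling and 4 and 1 with protein-coding scaling. GLDC, of the glycine cleavage system, fell from 27.6 ± 3.14 to 7.06 ± 1.57 FPKM, and ASNS, the asparagine synthetase, rose from 30.3 ± 8.58 to 66.8 ± 19.6 FPKM.

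Further lists had calls near the background or in both directions. Of 23 tested MHC and interferon genes 2 rose and 1 fell. OAS1, an antiviral enzyme, rose from 0.0541 ± 0.0489 to 4.2 ± 0.166 FPKM, and IFI16, a DNA sensor, rose from 0.29 ± 0.128 to 7.98 ± 0.353 FPKM. Insulin-like growth factor genes had 3 of 15 up and 1 down, the latter IGFBP2, a binding protein of the growth factors, which fell from 157 ± 28.4 to 42.2 ± 7.27 FPKM. Imprinted genes had 1 of 10 up and 2 down. PEG10, derived from a retrotransposon, rose from 12.6 ± 0.941 to 68.1 ± 10.4 FPKM, and MEST fell from 96.4 ± 7.82 to 36.4 ± 3.54 FPKM. Among 208 tested SLC transporters 14 rose (6.73%) and 15 fell (7.21%), beside 8.55% and 7.96% over all protein-coding genes, and with protein-coding scaling 24 rose and 13 fell. SLC29A1, a nucleoside transporter, fell from 46.1 ± 9.08 to 6.03 ± 1.04 FPKM. Hedgehog genes had 1 of 8 up, the receptor PTCH1 (2.53 to 7.05 FPKM), and 1 down, the effector GLI1, whose call was lost in 8 settings, among them upper-quartile, quantile and protein-coding scaling.

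To show the sequence around the start of genes that moved, RefSeq promoters (build GRCh38.p14, 250 bases before to 50 after the first listed start) were matched by symbol for 768 of 1030 raised, 708 of 959 lowered and 8095 of 10062 uncalled protein-coding genes. A ratio of observed to expected CpG under 0.5, as in promoters outside CpG islands, was found in 22.0% of raised, 21.0% of lowered and 9.41% of uncalled genes. The TATA box TATAAA on the gene's strand was in 8.33% of raised, 4.52% of lowered, 2.66% of uncalled and 3.25% of all tested genes, and in 7.71% of all 27305 genes of the table. The E-box CAGGTG on either strand, letters that SNAI and ZEB factors are known to bind, was in 13.5% of raised, 27.4% of lowered, 17.5% of uncalled and 17.9% of all tested genes, and in 20.6% of the whole table. With genes of a single listed start, the E-box shares were 12%, 29.1% and 17.2%, and the TATA shares 10.3%, 4.42% and 2.62%. These shares are descriptions of letters without a test, and E-boxes may overlap the T-box letters AGGTGTG, which were in 4.17% of raised, 3.95% of lowered and 3.15% of uncalled genes. The octamer ATGCAAA was in 4.43%, 3.81% and 2.63%, the SOX letters ACAATG in 5.86%, 5.51% and 5.94%, the TCF and LEF letters CTTTGA in 8.59%, 8.62% and 8.23%, the FOXH1 letters AATCCAC in 1.82%, 1.27% and 1.51% and the GATA letters AGATAA in 6.77%, 5.65% and 4.56%, each on either strand.

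Promoters of 3 raised and 3 lowered genes described above are printed 5′ to 3′ on the gene's strand with TATAAA and CAGGTG (or its reverse complement CACCTG) in capitals, to show genes with and without these letters. They are CER1 at chr9:14722684-14722983 (minus strand), DKK1 at chr10:52314031-52314330 (plus strand), EOMES at chr3:27722274-27722573 (minus strand), SOX2 at chr3:181711675-181711974 (plus strand), ZFP42 at chr4:187995521-187995820 (plus strand) and CLDN6 at chr16:3018134-3018433 (minus strand).
CER1: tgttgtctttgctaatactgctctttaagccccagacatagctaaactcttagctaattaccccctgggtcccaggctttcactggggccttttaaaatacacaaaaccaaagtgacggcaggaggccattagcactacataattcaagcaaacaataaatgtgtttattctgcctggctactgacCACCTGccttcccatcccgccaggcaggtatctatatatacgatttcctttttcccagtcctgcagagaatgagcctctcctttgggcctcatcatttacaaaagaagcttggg
DKK1: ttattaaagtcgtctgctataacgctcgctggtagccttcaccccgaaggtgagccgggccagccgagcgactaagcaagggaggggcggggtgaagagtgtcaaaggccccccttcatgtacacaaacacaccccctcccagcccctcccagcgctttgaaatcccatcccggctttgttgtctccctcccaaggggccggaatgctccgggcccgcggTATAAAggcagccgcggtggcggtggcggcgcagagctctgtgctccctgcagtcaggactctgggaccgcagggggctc
EOMES: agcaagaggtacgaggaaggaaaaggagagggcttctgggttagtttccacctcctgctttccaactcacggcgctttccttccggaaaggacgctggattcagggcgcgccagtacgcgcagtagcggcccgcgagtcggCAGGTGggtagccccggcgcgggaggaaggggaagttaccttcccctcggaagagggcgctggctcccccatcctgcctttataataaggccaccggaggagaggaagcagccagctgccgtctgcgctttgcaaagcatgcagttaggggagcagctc
SOX2: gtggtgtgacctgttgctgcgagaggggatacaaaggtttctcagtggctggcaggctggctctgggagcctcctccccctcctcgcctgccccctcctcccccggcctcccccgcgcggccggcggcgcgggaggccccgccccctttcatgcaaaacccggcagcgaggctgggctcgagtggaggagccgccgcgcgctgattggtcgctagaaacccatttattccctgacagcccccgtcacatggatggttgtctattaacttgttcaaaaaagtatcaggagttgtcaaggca
ZFP42: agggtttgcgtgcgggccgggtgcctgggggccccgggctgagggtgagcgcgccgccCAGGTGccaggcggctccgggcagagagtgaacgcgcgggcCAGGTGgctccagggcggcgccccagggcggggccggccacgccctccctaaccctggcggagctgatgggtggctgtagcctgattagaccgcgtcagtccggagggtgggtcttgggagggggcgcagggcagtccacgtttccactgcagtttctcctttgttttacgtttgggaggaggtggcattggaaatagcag
CLDN6: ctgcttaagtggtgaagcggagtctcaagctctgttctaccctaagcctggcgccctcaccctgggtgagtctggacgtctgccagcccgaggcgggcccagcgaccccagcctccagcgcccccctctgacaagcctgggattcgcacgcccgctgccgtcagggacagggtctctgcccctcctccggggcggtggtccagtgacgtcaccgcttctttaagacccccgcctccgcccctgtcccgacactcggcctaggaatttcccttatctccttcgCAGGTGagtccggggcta

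In these windows the TATA box of DKK1 begins at position -30 from the start, and the pair of E-boxes of ZFP42, a stem cell zinc finger gene that fell from 122 ± 8.59 to 52.9 ± 1.14 FPKM, begin at positions -192 and -151. The call of ZFP42 was lost with quantile and protein-coding scaling. CER1 has a GC content of 45.3% and a CpG ratio of 0.2, against a median GC of 66.3% over raised genes, and neither motif is in the SOX2 window.

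Many of the most raised genes were lower in the later populations. CER1 averaged 1.83 FPKM in CD31+CD34+ cells, GRP 1.16, EOMES 4.14 and MIXL1 1.1 FPKM. In contrast APLNR stayed at 403 FPKM on day 5 and was at 23.7 FPKM in CD43+ cells, BMPER was at 143 FPKM and HAPLN1 at 905 FPKM on day 5. Among regulators, ZEB2 went on to 48.2 and 53.4 FPKM, GATA2 to 50.3 and 90.6 FPKM and RUNX1 to 9.29 and 37.9 FPKM, all above their day 2 level. APLN, untested on day 2, averaged 24.2 FPKM on day 5. The falls lasted for SOX2, USP44 and VSNL1, at most 0.39 FPKM in both later populations. These later means of 3 libraries are given as levels, with no test.

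**Figure D5:**
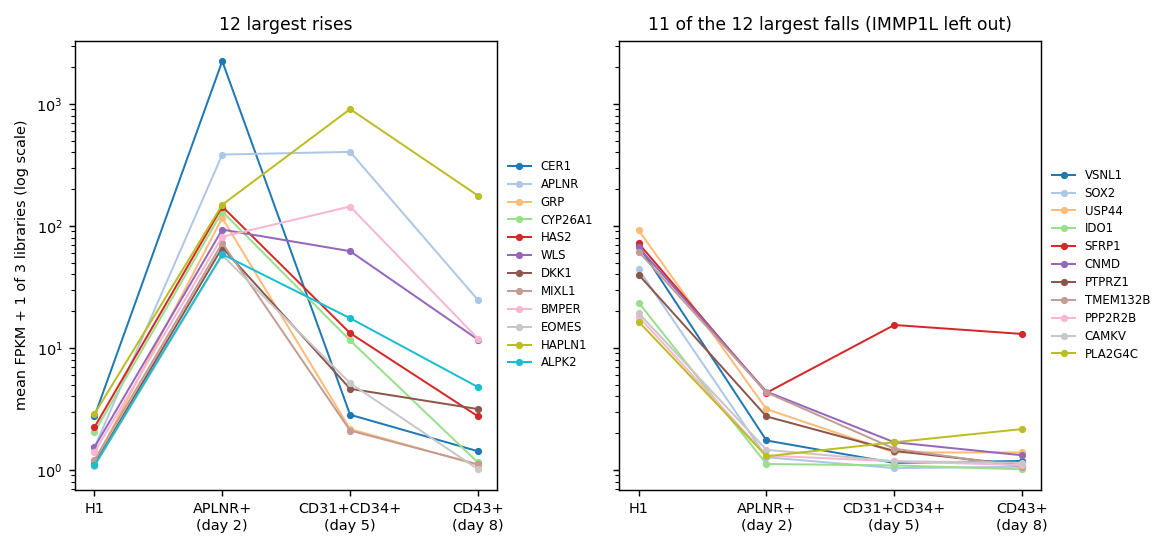
Mean FPKM + 1 on a log axis in H1 cells and in the APLNR+, CD31+CD34+ and CD43+ cells of days 2, 5 and 8 for the 12 largest rises and for 11 of the 12 largest falls, IMMP1L being left out. Most raised genes peak in APLNR+ cells and drop by day 5, APLNR, BMPER, HAPLN1 and WLS stay high on day 5, and most lowered genes stay low.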

How the data were processed

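The deposited table gives FPKM per gene, which the authors made from RNA-seq reads. The submitters' processing notes name hg19, BWA, Bowtie and RSEM without their roles or versions, and strand is not given in the sources used here. The methods state independent experiments for each analysis without naming the sequencing. Of 58366 lines, 1 line of text was left out. The 58365 gene lines hold 56593 symbols, and the 345 symbols on several lines kept the line of highest mean. Spreadsheet software had turned 27 names into dates. Gene types came from GENCODE release 29 by symbol (54879 matched, 374 by an older symbol, 1340 unmatched).

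Genes of at least 1 FPKM in at least 3 of the 6 libraries were compared as log2(FPKM + 1) with limma 3.58.1 (R 4.3.3, eBayes with trend, two-sided, Benjamini-Hochberg adjusted over 13581 genes), without a block. In a test on simulated data 96 of 100 genes changed by 1.5 and 99 of 100 changed by 3 on the log2 scale were called, and 2 unchanged genes. The changed genes were drawn from those expressed in H1 and the noise was independent. The test therefore does not cover genes near 0 in H1 or failed estimates. The members and lists were chosen with earlier results of these data known. Named genes are the 5 markers, the 12 largest rises and falls among called protein-coding genes of at least 10 FPKM without overlap, up to 3 largest rises and falls and the highest member of each list, the 5 largest differences of mean FPKM each way, and the apelin and LEFTY families. Other genes were named after their values were seen. Alternatives changed the pseudocount, filter, scaling, minimum change, libraries fitted and repeated symbols. Promoters came from RefSeq, and tables and figures were made with Python 3.11.15, pandas 2.3.3 and matplotlib 3.10.9. Results for a few members of the lists are not reported here.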

Additional observations from a re-analysis of the deposited data

How the results depend on the processing

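No call turned to the opposite direction in any setting. Of 317 named genes tested, 289 were called, 254 in every setting, and 35 lost their call in at least 1 setting (29 with protein-coding sum scaling, 16 with upper-quartile scaling, 13 with quantile normalization). The main counts were 1226 raised and 1134 lowered, 2360 in all, with 1030 and 959 protein-coding. With a mean of at least 5 FPKM they were 629 and 586 of 8464 genes, 1215 in all, with 585 and 529 protein-coding, since fewer genes were tested. With no minimum change they were 3243 and 5217, 8460 in all, with 2878 and 4665 protein-coding. With a 4-fold minimum they were 382 and 189, 571 in all, with 334 and 155 protein-coding. A pseudocount of 0.1 gave 1578 raised and 1725 lowered, since it shrinks changes of low genes less. Protein-coding sum scaling gave 1607 raised and 743 lowered, 621 of the latter protein-coding. Without each library in turn the counts ran from 1202 to 1265 raised, 1099 to 1187 lowered and 2355 to 2394 in all, with 1013 to 1058 and 935 to 1013 protein-coding. A term for replicate 1, chosen after seeing the data, gave 1227 and 1137. The replicate block gave 1229 raised and 1139 lowered, 2368 in all, and changed no named call. Libraries of the same number deviated together at r = 0.34, 0.21 and -0.12, and those of different numbers at -0.37 to 0.3. With 3 libraries in each population these values cannot tell whether the numbers pair the samples. The minimum mean of 5 FPKM left no tested blood or HOX gene, so their medians have no value there. Absolute depth is unknown, which limits what can be said of genes near 0.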
